A study of Mus musculus with 4 samples.

Results

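The peaks described here are those most open in the nuclei that the deposited annotation calls VSMC (vascular smooth muscle cells) in mouse inguinal white adipose tissue. The 32552 annotated nuclei were gathered into 7 pools, namely VSMC, adipocytes (white and beige together), adipocyte progenitor cells (APC), vascular endothelial cells (VEC), myeloid cells, B cells and T cells. The accessibility of a peak in a pool was its number of nuclei with reads, scaled to 1000000 such entries over all peaks of the pool (CPM). A peak was a member where its VSMC value was at least 25 CPM and at least 4 times that of each other pool, and 1886 of 189598 peaks (0.995%) met both conditions. Accessibility in the VSMC pool against the other pools therefore chose the members, and those values are given as a description without a test.

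Open chromatin was measured in single nuclei (snATAC-seq), in which the Tn5 transposase inserts adapters where DNA is accessible. Inguinal fat came from C57BL/6 male mice of 8 weeks, with 3 mice in each of 7 groups. The day0RT group stayed at 22 °C. The cold groups (day1C, day3C and day7C) were kept at 6.5 °C for 1, 3 or 7 days, and the CL groups (day1CL, day3CL and day7CL) received CL-316,243, an agonist of the β-adrenergic receptor of adipocytes, at 1 mg/kg for the same times. By the paper, CL was given at room temperature, 22 °C. The labels give no genetic change for any group. The VSMC pool held 283 nuclei (0.869% of all) and 766681 entries, so that 1 entry in it was worth 1.30 CPM.

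Striated muscle contracts when calcium released from the sarcoplasmic reticulum binds troponin on the thin filament and frees actin for myosin. Fast and slow skeletal fibres and the heart use different paralogues of myosin, troponin and the calcium pump. Smooth muscle of vessel walls has no troponin and is defined by its own actin, myosin and calponin genes under control of the cofactor myocardin. In skeletal muscle, factors of the MYOD family bind E-boxes, most often CAGCTG, together with MEF2 factors, and smooth muscle genes are known for the CArG box bound by SRF.

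Sequences of members at or near the starts of skeletal muscle genes show these elements directly. They are written on the plus strand of GRCm38 (mm10), 5′ to 3′, as the central 300 bases of the peak or fewer, with untranslated bases trimmed away. Capitals mark the E-box CAGCTG, the E-box CAGGTG on either strand, and the MEF2 consensus. The first 6 were taken by rule from members at skeletal muscle marker genes that hold CAGCTG or the MEF2 consensus. That each holds 1 of these elements was therefore fixed by the choice and is no result. Over all members 35.5% held CAGCTG and 6.47% the MEF2 consensus in the central window. The last, from the most open member between Myh3 and Myh2, was chosen after its values were seen.
Tnnt3 chr7:142498551-142498770: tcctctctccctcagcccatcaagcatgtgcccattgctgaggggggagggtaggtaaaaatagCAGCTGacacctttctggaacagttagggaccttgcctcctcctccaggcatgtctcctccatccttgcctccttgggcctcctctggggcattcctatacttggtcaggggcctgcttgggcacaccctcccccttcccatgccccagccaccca
Ttn chr2:76982558-76982739: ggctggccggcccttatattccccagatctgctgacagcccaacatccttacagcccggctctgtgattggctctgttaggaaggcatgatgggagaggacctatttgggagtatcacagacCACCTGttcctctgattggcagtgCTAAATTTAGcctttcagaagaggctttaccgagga
Atp2a1 chr7:126464202-126464501: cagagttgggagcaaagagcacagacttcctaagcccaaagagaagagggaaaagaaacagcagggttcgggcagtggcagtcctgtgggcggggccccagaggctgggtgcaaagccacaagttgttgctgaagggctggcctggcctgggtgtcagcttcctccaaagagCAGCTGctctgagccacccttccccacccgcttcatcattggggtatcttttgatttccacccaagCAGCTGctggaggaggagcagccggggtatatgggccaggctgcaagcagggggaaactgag
Casq1 chr1:172219896-172220163: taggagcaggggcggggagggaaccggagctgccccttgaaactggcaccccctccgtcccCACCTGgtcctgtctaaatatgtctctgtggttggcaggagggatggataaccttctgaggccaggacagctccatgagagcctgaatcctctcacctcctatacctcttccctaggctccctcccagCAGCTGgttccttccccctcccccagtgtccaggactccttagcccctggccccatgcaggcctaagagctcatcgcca
Myh4 chr11:67237684-67237811: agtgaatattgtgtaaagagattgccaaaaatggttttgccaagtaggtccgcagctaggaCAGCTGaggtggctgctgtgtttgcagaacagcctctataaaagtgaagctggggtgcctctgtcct
Myh1 chr11:67204900-67205199: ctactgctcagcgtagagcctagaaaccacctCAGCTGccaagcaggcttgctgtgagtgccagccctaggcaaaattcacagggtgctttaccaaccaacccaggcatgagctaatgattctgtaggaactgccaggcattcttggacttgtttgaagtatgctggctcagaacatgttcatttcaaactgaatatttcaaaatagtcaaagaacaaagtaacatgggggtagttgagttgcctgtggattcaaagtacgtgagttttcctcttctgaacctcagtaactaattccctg
Myh3 to Myh2 interval chr11:67114846-67115145: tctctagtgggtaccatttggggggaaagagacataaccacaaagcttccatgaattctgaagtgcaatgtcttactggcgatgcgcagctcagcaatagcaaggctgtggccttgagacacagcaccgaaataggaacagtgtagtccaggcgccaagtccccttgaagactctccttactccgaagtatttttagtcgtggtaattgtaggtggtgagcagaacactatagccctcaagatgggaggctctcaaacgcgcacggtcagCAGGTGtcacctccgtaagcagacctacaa

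The Tnnt3, Casq1, Myh4 and Myh1 stretches each held 1 CAGCTG, and the Atp2a1 stretch held 2. The Ttn stretch held a CAGGTG-type box and a MEF2 site. Tnnt3 encodes fast troponin T, Ttn the giant filament titin, Atp2a1 the fast calcium pump, Casq1 the calcium store protein calsequestrin, and Myh4 and Myh1 fast myosin heavy chains. The accessibility of these 6 peaks in the VSMC pool was 65.2 CPM at Tnnt3, 62.6 at Ttn, 53.5 at Atp2a1, 48.3 at Casq1, 47.0 at Myh4 and 37.8 at Myh1.

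The VSMC nuclei were unevenly spread over mice. The day3C group supplied 114 nuclei and 52.1% of the entries, against 5 nuclei in day0RT, 13 in day1C, 60 in day7C, 14 in day1CL, 51 in day3CL and 26 in day7CL. No VSMC nuclei came from 4 of the 21 mice, and 10 mice gave at least 10, of which 5 were cold and 5 CL. Of the VSMC nuclei, 89 shared their barcode sequence with 99 nuclei of other mice, of which 4 were also VSMC. The day1C nuclei stood apart. Of the 283 nuclei, 10 had under 2% of their entries in members (at most 1.36%, while the other nuclei had at least 2.82%), and 9 of those 10 were among the 13 day1C nuclei. Without the day1C mice the rule gave 1999 members, of which 1864 were among the 1886.

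The label of the cluster was set against marker genes. Members lay in or just upstream of 15 of the 17 skeletal muscle marker genes that have a peak, and of 2 of 11 smooth muscle markers. None lay at the 7 pericyte, 6 endothelial, 4 satellite cell, 4 stromal, 4 adipocyte or 4 immune marker genes with a peak. Over all 17173 protein-coding genes with a peak, 881 (5.13%) had a member. The study annotated its clusters also by differentially accessible genes, gene ontology, motifs and the genes near open regions, which were not repeated here. Among the marker genes it gives for this cluster, 3 of 4 with a peak had a member, namely Mylk4, Myh4 and Myod1, and Myog had none. Mylk4 and Myh4 are expressed in striated muscle and Myod1 is the skeletal muscle determination factor. At these marker genes the data therefore go against the label. The members are called here by their rule and by their leading genes, which were those of fast skeletal muscle.

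Skeletal muscle gene starts were open in the VSMC pool. The peak at Tnnc2, fast troponin C, was the most open member at 134 CPM, with entries in 103 nuclei (36.4%), against 22.1 CPM in adipocytes, 4.62 in APC and at most 2.13 elsewhere. The peak at Acta1, skeletal α-actin, stood at 86.1 CPM and that at Ryr1, the calcium release channel, at 80.9 CPM. Start peaks at Cacna1s (33.9 CPM), the voltage sensor of the transverse tubule, and at Myod1 (31.3 CPM) were also members. In the next highest pool the Ttn, Myh4, Cacna1s and Myod1 peaks were near 0, at ratios of 94.8, 142, 55.8 and 51.5. Not every skeletal gene start was a member. The peaks at Actn3 (75.7 CPM) and Tnni2 (74.3 CPM) were as open as those of members but were also open in T cells (44.2 CPM) and myeloid cells (44.0 CPM). The Ckm start peak (32.6 CPM) missed the ratio at 3.50. The Actn3 peak also lay within 2000 bases of the Zdhhc24 start, and the Ckm peak within 2000 bases of the Klc3 start. The start peaks of Neb (6.52 CPM), Myog (5.22 CPM) and Myh2 (1.30 CPM) were nearly closed, and Myh1 and Mylpf had no peak at the start.

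None of the start peaks of smooth muscle genes was a member. Acta2, smooth muscle actin, had 3.91 CPM in the VSMC pool against 35.3 in B cells. Myh11, smooth muscle myosin, had 7.83 CPM against 21.1 in APC, and Tagln, transgelin, had 5.22 CPM against 10.6 in APC. The peaks at Cnn1 and Myocd, calponin and myocardin, both had 2.61 CPM from 2 nuclei. The highest of this list were Smtn (27.4 CPM, below the 53.7 of VEC) and Lmod1 (20.9 CPM, 1.67 times the adipocyte value). The 2 smooth muscle markers with a member away from the start were Smtn, with 1, and Synpo2, with 3. Summed over all their peaks, Acta2 had 14.3 CPM in the VSMC pool and 61.8 in B cells, while Ryr1 had 295 and at most 108 in any other pool. Among the smooth muscle markers only Synpo2 (561 CPM against at most 335) and Lmod1 (92.6 against at most 48.5) summed highest in the VSMC pool. Among the skeletal markers with a peak only Myog (7.83 CPM against 14.7 in VEC) did not. Each of the 7 pericyte genes summed to less here than in at least 1 other pool, for example 15.7 CPM at Pdgfrb against 97.4 in APC.

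**Figure D1:**
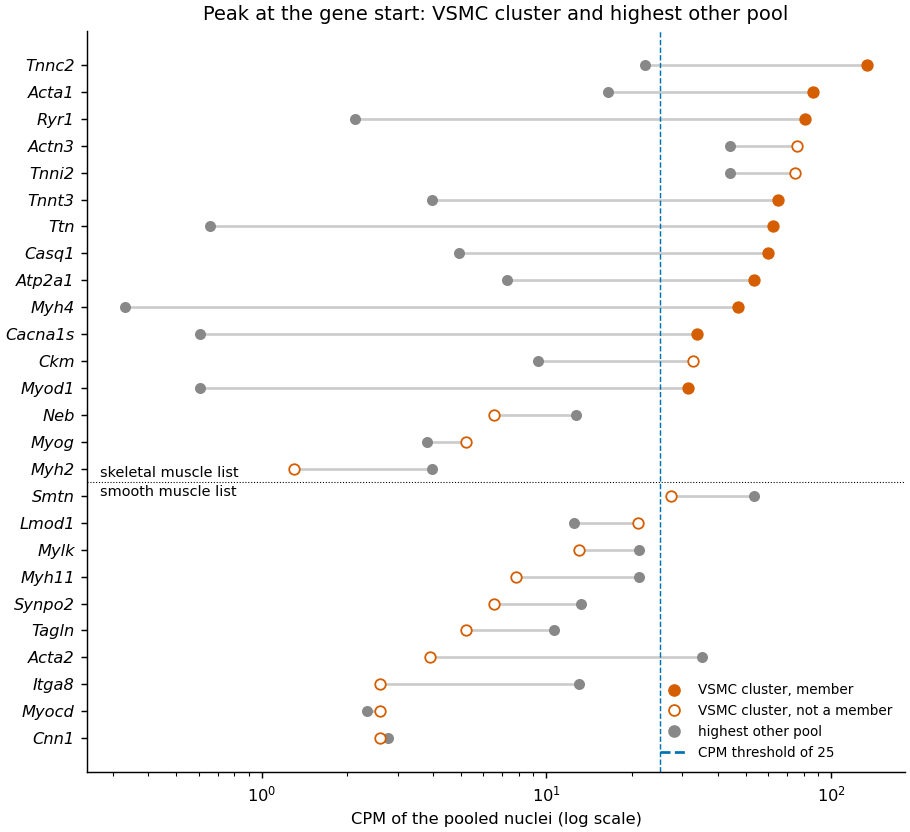
Accessibility (CPM of pooled nuclei, log scale) of the peak at the start of each skeletal and smooth muscle marker gene in the VSMC cluster (orange, filled for members and open for others) and in the highest other pool (grey), with the threshold of 25 CPM dashed. Of 16 skeletal markers with a start peak 10 reach beyond both thresholds, from Tnnc2 at 134 CPM to Myod1 at 31.3 CPM, and no smooth muscle marker does.

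The 12 most open members, ranked by CPM, ranged from 88.7 to 134 CPM. CPM was not scaled by peak length, so long peaks could rank higher. These 12 were 592 to 1709 bases long, where the median member had 398 bases. After Tnnc2 came a peak at Pgam2, the muscle phosphoglycerate mutase of glycolysis (102 CPM), and one within 2000 bases of the starts of both Tcap, which caps titin at the Z-disc, and Pnmt (96.5 CPM). Peaks in introns of Map2k6, a kinase that activates stress-activated kinases, and of Tbc1d1, which controls glucose transporter traffic, each had 95.2 CPM, as had peaks near Ntsr2 and at the start of Lrrc14b. The others lay near Teddm2 and at Tmem52 (93.9 CPM each), in Slc16a3, a lactate transporter, and at the start of Sptb, a spectrin of the membrane skeleton (88.7 CPM each). The remaining peak, chr7:142600463-142601289, lay 65940 bases from its nearest gene start, that of Igf2, and was the most restricted of the 12, with 92.6 CPM against at most 0.608 CPM in another pool, a ratio of 152.

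Over all 1886 members the VSMC accessibility ran from 26.1 to 134 CPM with a median of 36.5, from 20 to 103 nuclei each. Only 342 reached 50 CPM and 2 reached 100 CPM. The ratio to the next pool ran from 4.01 to 220 with a median of 12.4, 1249 members were at least 8 times and 798 at least 16 times every other pool. The next pool was adipocytes for 691 members, VEC for 432, APC for 421, myeloid cells for 228, T cells for 67 and B cells for 47. In VEC, where 1 entry was worth 1.63 CPM, 806 members had no entry, so ratios to that small pool are coarse. Just inside the ratio limit lay peaks near Gjc1, Btg2 and Il12a (26.1 CPM and a ratio of 4.01 each), Prrx1 (33.9 CPM, 4.03) and Gm340 (32.6 CPM, 4.05). Just outside, all at a ratio of 3.99, lay peaks near Jak2 (41.7 CPM), Adprhl2 (37.8 CPM), Klhl31 (26.1 CPM), Nnmt (43.0 CPM) and a peak upstream of Myh4 (47.0 CPM). Members took 7.49% of the VSMC entries, 0.497% of the adipocyte entries, 0.368% in APC, 0.353% in VEC, 0.254% in myeloid cells, 0.161% in T cells and 0.143% in B cells. The same rule applied to the other pools gave 533 peaks for adipocytes, 622 for VEC, 231 for APC, 293 for myeloid cells, 787 for B cells and 1148 for T cells.

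The gene lists are given by role, beside the 5.13% of all genes with a member. Of 12 fast sarcomere genes with a peak, 10 had a member, among them Myl1, a fast myosin light chain, with 2 of its 5 peaks (up to 61.3 CPM), and Tpm1 and Tpm2, the tropomyosins that block actin at rest (up to 53.5 and 57.4 CPM). The 2 without one were Myh2 and Mybpc2. The list also holds Acta1, Tpm1 and Tpm2, which are not confined to fast fibres. Of 8 slow sarcomere genes with a peak none had a member, and Myh7, the slow and cardiac myosin, had no entry at its 1 peak in the VSMC pool. None of 4 cardiac sarcomere genes had a member either, and Tnnt2, cardiac troponin T, summed to 10.4 CPM over 5 peaks.

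Genes of the Z-disc and M-band, which anchor thin and thick filaments, had members in 18 of 21 cases. Among them Ttn, Neb and Myom1 had 5 members each, Myot all 3 of its peaks, and Myoz1, a calcineurin-binding Z-disc protein, 2 of 3 peaks with up to 83.5 CPM. Des, Pdlim3 and Myom3 had none.

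Calcium handling genes had members in 17 of 21 cases. Jph2, which ties the transverse tubule to the reticulum, had members at 8 of its 11 peaks, with up to 44.3 CPM. Trdn, triadin of the release complex, reached 69.1 CPM, Bin1, which shapes the tubules, 65.2 CPM, and both peaks of Pvalb, the calcium buffer of fast fibres, were members, with up to 61.3 CPM. The pumps divided, since 3 of 4 peaks of Atp2a1, the fast form, were members and none of 11 peaks of Atp2a2, the slow and cardiac form. Casq1, the fast calsequestrin, likewise had 2 of 4 and Casq2 none of 4.

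Energy genes had members in 10 of 20 cases, with Pgam2 at 3 of 3 peaks, Pfkm, muscle phosphofructokinase, at 4 of 5, and Ckm, muscle creatine kinase, at 2 of 6. Prkag3, an energy-sensing kinase subunit, reached 77.0 CPM and Ak1, adenylate kinase, 73.0 CPM. Mb, myoglobin, and the muscle subunits of cytochrome oxidase Cox6a2, Cox7a1 and Cox8b had no member.

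Turnover and muscle kinase genes had members in 12 of 14 cases, with Mylk4 at 3 of 7 peaks (up to 87.4 CPM), Mylk2, the skeletal myosin light chain kinase, at 80.9 CPM, the myosin chaperone Unc45b at 74.3 CPM and Asb5, a ubiquitin ligase adaptor, at 6 of 10 peaks. Among 13 genes of myogenic and muscle transcription factors 5 had a member. Tead1 had 6 of 45 peaks (up to 65.2 CPM), Tead4 2 of 14 (73.0 CPM), Mef2c 1 of 30 (40.4 CPM), and Myod1 and Myf6 1 each (31.3 and 28.7 CPM). Myog, which drives differentiation, and Pax7, the satellite cell factor, had none. The dystrophin complex had members at 6 of 14 genes, with Dysf, a membrane repair protein, at 3 of 32 peaks, and the neuromuscular junction at 2 of 10, Musk (28.7 CPM) and Dok7 (31.3 CPM).

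Across the genome 1254 members overlapped a gene or its 2000 upstream bases and 632 did not. The genes with the most members were partly very long, such as Gm20388 with 16 of its 791 peaks over 4434882 bases and Fgfr2 with 9 of 383 over 2960900 bases. Relative to their peaks the densest of the first 7 were Jph2 (8 of 11) and Asb5 (6 of 10), followed by Tead1 (6 of 45), Sox6, a regulator of fibre type (6 of 63), and Pde4d (7 of 128), and 12 more genes had 5 each. Members fell at gene starts as often as peaks did in general (9.86%, 95% exact binomial interval 8.55 to 11.3, against 10.1% of all peaks), somewhat more in introns (51.6% against 45.5%) and less between genes (33.7% against 39.2%). Members with at least 50 CPM lay at a start in 14.6% of cases. On chromosome X lay 0.636% of members and 2.20% of all peaks.

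Some members lay near one another. How often other sets of peaks do so was not counted, so this is a description and not a trait of the members. Another member was within 10000 bases for 595 of them (31.5%), and 7 runs held at least 5. The run with the highest summed accessibility held 7 members in 15966 bases at Mylk2 (373 CPM in all), and others lay at Jph2, Tnnt3, Tead1, Ppp1r12b and Asb15. The remaining run was in the myosin heavy chain cluster of chromosome 11, which carries Myh3, Myh2, Myh1, Myh4, Myh8 and Myh13 in a row.

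In that cluster 13 of 29 peaks were members. Between the end of Myh3, the embryonic myosin, and the start of Myh2, the type IIA myosin, lay 17 peaks, of which 10 were members. They spanned chr11:67105720-67142528, or 36808 bases, with 28.7 to 78.3 CPM in the VSMC pool and 0.208 to 7.59 CPM in the highest other pool of each. The genes on either side were nearly closed, with 15.7 CPM summed over Myh3 and 6.52 CPM over Myh2. The other 3 members were 1 in Myh1, the type IIX myosin (37.8 CPM), and 2 before Myh4, the type IIB myosin (30.0 and 47.0 CPM). Myh8, the perinatal form, had no peak. Of the 13 members 3 held CAGCTG and none the MEF2 consensus.

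**Figure D2:**
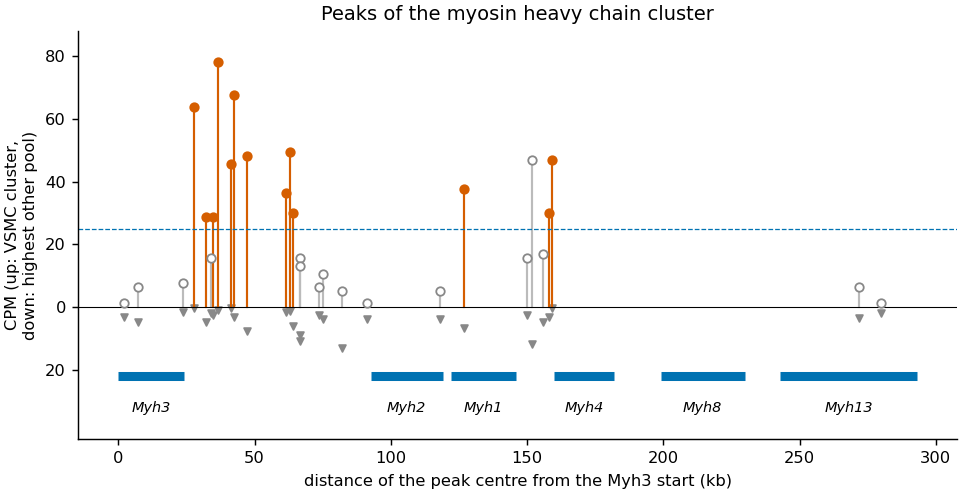
Accessibility of the 29 peaks of the myosin heavy chain cluster by distance from the Myh3 start in kb, with VSMC CPM upward (orange filled for members, open for others), the highest other pool downward (triangles), genes as blue bars and 25 CPM dashed. The 10 members between Myh3 and Myh2 reach 78.3 CPM, and the other 3 lie in Myh1 and before Myh4.

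Sequence was not used by the rule. Consensus matches on either strand were counted in a window of 150 bases on each side of the peak centre, beside the same windows of all peaks, with 95% exact binomial intervals for the members. CAGCTG was in 35.5% of members (33.4 to 37.7) and 20.9% of all peaks, and CAGGTG in 29.7% (27.6 to 31.8) and 16.7%. CAGATG followed with 26.1% (24.2 to 28.2) and 23.4%. The other E-boxes were near or below the general level, with CATATG in 4.14% against 5.04%, CACGTG in 4.83% against 5.32% and CAATTG in 1.86% against 4.21%. Any E-box, CANNTG, which includes all of these, was in 90.1% and 81.6%. The MEF2 consensus was in 6.47% of members (5.40 to 7.67) and 0.969% of all peaks, and CAGCTG and MEF2 together in 2.01% and 0.198%. Among the E-boxes CAGGTG and CAGCTG had the highest ratios, at 1.78 and 1.70, beside 1.12 for CAGATG, and MEF2 had the highest ratio among the motifs searched alone, at 6.67.

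Of the other muscle elements, the MEF3 site (TCAGGTTTC) was in 2.33% of members (1.70 to 3.12) and 0.449% of all peaks, and the TEAD site MCAT (CATTCC) in 18.2% and 16.5%. The CArG box, the element known from smooth muscle genes, was in 2.28% of members (1.65 to 3.06) and 1.62% of all peaks. The NR3C consensus of steroid receptors was in 3.50% and 1.02%. Several other elements had lower shares in members, with C/EBP (TTGCNNAA) in 11.8% against 18.5%, PU.1 (GAGGAAGT) in 1.86% against 4.87%, RUNX (TGTGGTTT) in 1.86% against 3.73%, the GC box (GGGGCGGGG) in 1.33% against 2.26% and CTCF in 1.27% against 2.42%. AP-1 (TGANTCA, 12.6% and 12.4%) and ERR (TCAAGGTCA, 0.689% and 0.634%) were level, and the NFI palindrome was in none of the members (upper limit 0.195%) and 0.0680% of all peaks. A match is a run of letters and does not show that a factor was bound.

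Members were richer in G and C, with a median of 51.3% of the window against 47.8%. Among windows with 40 to 50% G and C (703 members, 96770 peaks), CAGCTG stood at 25.0% against 18.8%, CAGGTG at 25.5% against 14.6%, MEF2 at 8.68% against 1.03%, MEF3 at 1.42% against 0.481% and NR3C at 4.13% against 1.08%. The CAGCTG ratio fell from 1.70 to 1.33 in this band and that of MEF2 rose to 8.40. Peaks chosen by the same rule for VEC held CAGCTG in 24.3% and MEF2 in 2.09%, and those for adipocytes held CAGCTG in 22.0%, MEF2 in 0.375% and C/EBP in 33.6%. CAGGTG was in 15.3% of those for VEC, 12.4% for adipocytes, 3.46% for APC and 27.9% for T cells. The T cell share lay near the 29.7% of members, so a raised CAGGTG share was not particular to the members. Matches were not gathered at member centres more than elsewhere. Within 50 bases of the centre lay 38.7% of CAGCTG matches in members and 38.8% in all peaks, where an even spread gives 33.6%, and for MEF2 the values were 39.2% and 42.0%.

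**Figure D3:**
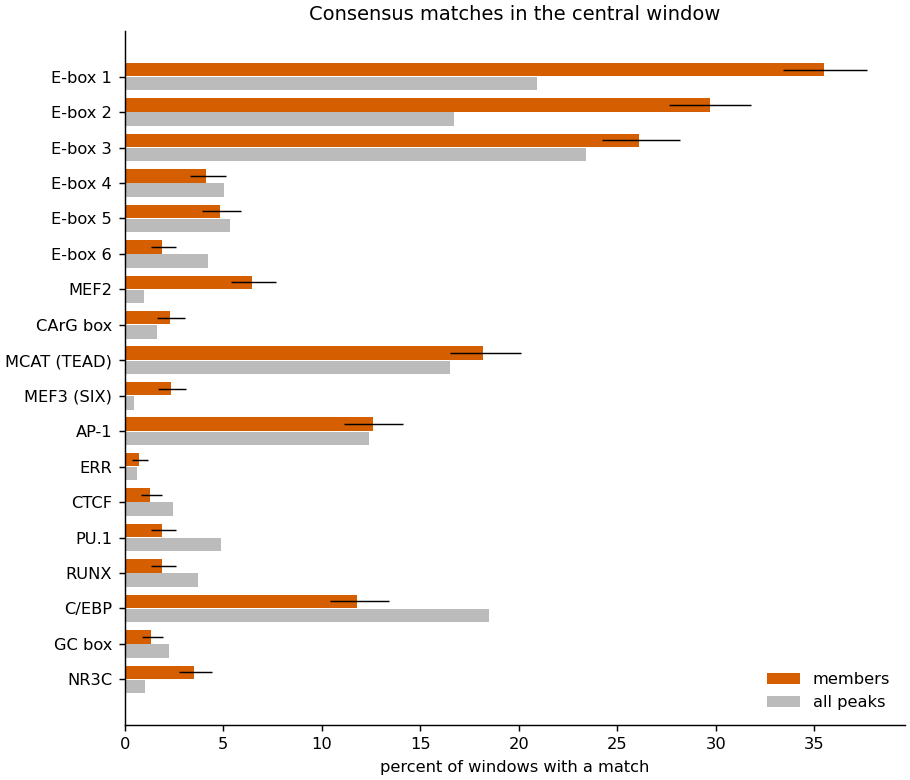
Percent of central windows with a consensus match in the 1886 members (orange, bars are 95% exact binomial intervals) and in all peaks (grey), with E-box 1 standing for CAGCTG, E-box 2 for CAGGTG, E-box 3 for CAGATG, E-box 4 for CATATG, E-box 5 for CACGTG and E-box 6 for CAATTG. E-boxes 1, 2 and 3, MEF2, MEF3, NR3C and, narrowly, the CArG box lie above the general level. E-box 6, C/EBP, PU.1, RUNX, the GC box and CTCF lie below it.

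The share of entries in members is given by mouse as a description. By the paper, the nuclei of all mice were clustered by their accessibility at variable peaks. The VSMC label of a nucleus thus rests on such values, also where members are chosen without its mouse. In the 10 mice with at least 10 VSMC nuclei, members took 6.64% to 9.01% of VSMC entries, with a median of 7.83%. With members chosen anew without the mouse measured, the values were 6.55% to 8.33%, median 7.64%. Cold mice had 6.64% to 9.01% and CL mice 7.24% to 8.52%, so the treatments overlapped. Over single nuclei the share ran from 0.321% to 12.9% with a median of 8.42%, and a nucleus had entries in a median of 131 members from a median of 1632 entries in all. Shares below that range were seen among the mice with fewer nuclei, though not in all of them. The day1C mice, with 2, 6 and 5 nuclei, had 3.94%, 4.66% and 0.852%, and the day0RT mice with 1 and 4 nuclei had 1.06% and 7.84%, and the day7CL mice with 7 and 6 nuclei had 5.46% and 7.90%.

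The Tnnc2 peak had entries in all 10 of those mice, at 136, 119, 160, 127 and 206 CPM in the cold mice and 152, 223, 116, 99.0 and 204 CPM in the CL mice. Its values in the treatments overlapped fully. Ryr1 and Tnnt3 were also seen in all 10 mice, from 37.2 to 152 CPM and from 36.3 to 152 CPM. The Ttn, Acta1 and Myh4 peaks had entries in 9 of 10 mice, with medians of 70.2, 91.5 and 44.5 CPM.

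**Figure D4:**
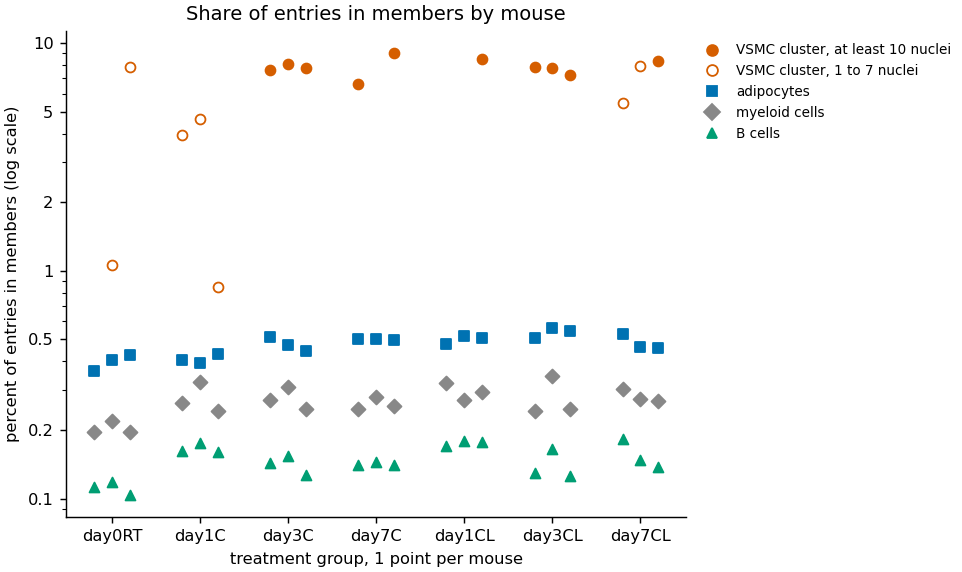
Percent of entries that fall in members (log scale) for each mouse by treatment group, in VSMC nuclei (orange, filled with at least 10 nuclei), adipocytes, myeloid cells and B cells. The filled points lie between 6.64% and 9.01% in cold and CL groups, and the open points below them belong to 1 day0RT mouse, the 3 day1C mice and 1 day7CL mouse, with 1 to 7 nuclei.

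Whether members differed between CL and cold was tested in the VSMC nuclei of those 10 mice (edgeR quasi-likelihood test, two-sided, Benjamini-Hochberg adjustment over all peaks tested). The count filter could be passed through 1 library alone, since day1CL and day7CL had 1 library each. Of 580 peaks that passed it 1 was called (0.172%), and none of the 100 members among them was. The tested members were thus partly chosen by a high value in 1 library, and these counts do not speak for the others. At an unadjusted p under 0.05 stood 7 members (7.00%) and 75 of all tested peaks (12.9%), and DESeq2 called no peak, with 1 member under that unadjusted level. The lowest adjusted p of a member was 0.23. The median log2 difference, CL minus cold, was -0.70 over the 100 tested members and -0.77 over all tested peaks. The median of these members thus lay near that of all tested peaks. Its sign is not read as lower accessibility under CL, since CPM values did not follow it at every member. With another scaling (RLE) the medians were -0.33 and -0.41. Without the filter on low counts, over all 1886 members and 120894 peaks, they were -1.89 and -0.80. There 21.5% of members and 2.47% of peaks stood at an unadjusted p under 0.05 by edgeR, with none called. By the rule each member had entries in at least 20 VSMC nuclei over all mice, while any peak with an entry was kept here. These shares and medians are therefore not comparable and are no result about the members. With peaks summed per gene, 15.8% and 10.3% stood under that level. Since each treatment day counted equally, the day1CL group, with 1 library, weighed as much as day3CL with 3. Without that library the medians were -0.20 and -0.21, and without the 1 library of day7CL they were -0.06 and -0.23. Of the 12 most open members 7 were tested, at adjusted p of 0.26 to 0.65 by edgeR. Each of these 7 had its highest value in a CL library, at 204 to 233 CPM, where the untested ones reached at most 186 CPM. The fitted differences of these 7 carry the same weighting and scaling. The Ntsr2 peak, for example, had 106, 106, 80.0, 109 and 90.3 CPM in the cold mice and from 49.5 to 233 CPM in 4 of the CL mice, and 0 in the day1CL library. The peak at Tcap and Pnmt had a negative fitted difference. Its values were 75.7, 85.8, 80.0, 109 and 116 CPM in the cold mice. In the CL mice they were 152, 112, 116, 111 and 204 CPM. The fitted sign and the CPM values thus differed there, and the reason was not tested. The CL libraries held 13138 to 80842 entries and the cold ones 50029 to 198249, which limits the differences that could be detected. Day 0 could not be compared, since no day0RT mouse had 10 VSMC nuclei.

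Some members were also open in adipocytes, and 62 of the 84 that could be tested differed between beige and white nuclei. The rule had pooled the 2 adipocyte types, of which beige nuclei gave 15.8% of the entries. The condition of 4 times therefore held mainly against white nuclei and let in peaks open in beige ones, so the counts in the next sentences are partly fixed by the choice of members and are given as a description. Sums over 19 beige libraries (12 to 107 nuclei) and 21 white libraries (23 to 847 nuclei) were compared with edgeR's quasi-likelihood test. Only 84 of the 1886 members (4.45%) passed the filter on low counts, those with a pooled adipocyte accessibility of 3.32 to 23.1 CPM, where the median of all members was 1.31 CPM. Of these 84, 56 were higher in beige nuclei, beside 13.0% of the 24854 peaks tested, and 6 were lower, beside 13.9%. A peak open in beige nuclei alone can pass that filter through the beige libraries, so these counts do not speak for the members as a whole. With a filter on the mean of the beige and white CPM, chosen after the data were seen, 364 members were tested, of which 112 (30.8%) were higher in beige beside 9.84% of all peaks tested, and 41 (11.3%) lower beside 18.9%. Without a filter 134 of 1886 members (7.10%) were called higher and 232 (12.3%) lower, beside 5212 and 39019 of 189546 peaks. Under the main filter without the day7C libraries, 26 of 39 tested members were higher and none lower, beside 1700 and 1723 of 18432 peaks. Without day3C 27 of 48 were higher and 5 lower, beside 1863 and 2027 of 21281 peaks. Without day1CL 31 of 44 were higher and 3 lower, beside 2386 and 2526 of 19486 peaks.

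With beige and white nuclei as separate pools in the rule, an alternative chosen after the data were seen, 1751 of the 1886 members remained. Of these 31 passed the count filter, with 9 (29.0%) higher and 6 (19.4%) lower in beige, beside 13.0% and 13.9% of all peaks tested. The filter on mean CPM passed 235, with 29 (12.3%) higher and 37 (15.7%) lower, near the 9.84% and 18.9% of all peaks. With the filter on mean CPM the larger number of members higher in beige was thus not seen once the rule treated both types alike. With the count filter the share higher stayed above that of all peaks, over only 31 members. A peak open in beige nuclei alone can pass that filter.

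Per mouse over all 1886 members, the share of entries was 0.404% to 0.671% in beige nuclei (median 0.557%) and 0.357% to 0.555% in white nuclei (median 0.443%), higher in beige in 19 of 19 mice with both. Over the 1802 members that did not pass the filter, it was 0.304% to 0.498% (median 0.432%) against 0.298% to 0.470% (median 0.374%), higher in beige in 14 of 19 mice. With the 1751 members the medians were 0.383% and 0.364%, and beige was higher in 10 of 19 mice. The ranges overlap over the 1886 and over the 1802 members.

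The 3 members with the largest rise in beige nuclei were peaks at Perm1, in Itgb6 and near Top2b, none of which was a member with separate pools, while those with the largest fall remained. Both the rule and the count filter let in peaks open in beige nuclei. The differences and adjusted p of these 3 peaks are thus partly fixed by that choice and are given as a description. The Perm1 peak, chr4:156215421-156216542, lies 113 bases past the start of the gene, a regulator of oxidative metabolism in muscle. Its lowest, median and highest values were 0, 33.5 and 64.8 CPM over beige libraries and 0, 3.88 and 45.3 CPM over white ones, and beige was higher in 17 of 19 mice. The log2 difference, beige minus white, was 2.76 (SE 0.20, adjusted p = 3.9e-33 by edgeR). The white value of 45.3 CPM came from a mouse without a beige library. The Itgb6 peak, chr2:60720014-60720613, in an intron of an integrin gene, had a median of 19.4 CPM in beige and 2.30 CPM in white libraries, with a log2 difference of 2.66 (SE 0.26, adjusted p = 5.9e-20). An intronic peak, chr14:16497191-16497758, with Top2b, a DNA topoisomerase, as its nearest gene start, had medians of 16.2 and 2.83 CPM and a difference of 2.47 (SE 0.26, adjusted p = 2.4e-17).

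The 3 largest falls were smaller. A peak in an exon of Hr, the hairless corepressor, chr14:70553753-70554736, had a median of 6.71 CPM in beige and 17.6 CPM in white libraries, and beige was higher in 2 of 19 mice (log2 difference -1.47, SE 0.25, adjusted p = 1.8e-07). The intronic Tbc1d1 peak, one of the 12 most open members, had medians of 6.17 and 16.6 CPM (-1.11, SE 0.23, adjusted p = 3.0e-05). The peak nearest to Itgb3bp, chr4:99973904-99974853, had medians of 9.51 and 17.8 CPM (-0.93, SE 0.21, adjusted p = 1.0e-04).

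Few members of the muscle gene lists could be tested here. Of 17 fast sarcomere members 2 were tested, none was higher and that at Acta1 was lower in beige (median 11.7 against 17.0 CPM, log2 difference -0.68, SE 0.21, adjusted p = 0.0066 by edgeR). Of 40 Z-disc and M-band members 4 were tested and those in Actn2, Cmya5 and Myom1 were higher. Of 20 energy members 3 were tested and those in Ak1 and Pfkm were higher. The 1 tested of 10 dystrophin complex members, in Dysf, was higher (median 16.8 against 4.25 CPM). Of all peaks tested 13.0% were higher. The rule and the count filter let in peaks open in beige nuclei, so these calls are a description. None of 40 calcium handling, 11 transcription factor, 20 turnover, 2 neuromuscular junction and 4 smooth muscle members passed the count filter. With the filter on mean CPM, 3 Z-disc and M-band members were higher and 1 lower of 6 tested. Energy members gave 2 higher and 1 lower of 5, and fast sarcomere members none higher and 2 lower of 5. Adipocyte entries at the muscle peaks were also set against the presence of VSMC nuclei. In the 4 mice without VSMC nuclei the adipocyte pool had 0 to 22.4 CPM at the Tnnc2 peak (median 9.69), and in the other 17 mice 14.3 to 31.3 CPM (median 22.5). At Acta1 the 4 mice had 0 to 21.2 CPM (median 17.1) and the 17 mice 11.9 to 39.1 CPM, with a median that was not higher. At Ttn, Myh4 and Ryr1 the 4 mice had no entry and the 17 mice 8, 6 and 10, but the 4 mice had 7905 adipocyte entries in members against 135868, so fewer than 1 entry per peak could be looked for there. Over all members the adipocyte share was 0.364% to 0.519% in those 4 mice and 0.394% to 0.559% in the 17. The part of stray reads from other nuclei in the adipocyte values was not tested.

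**Figure D5:**
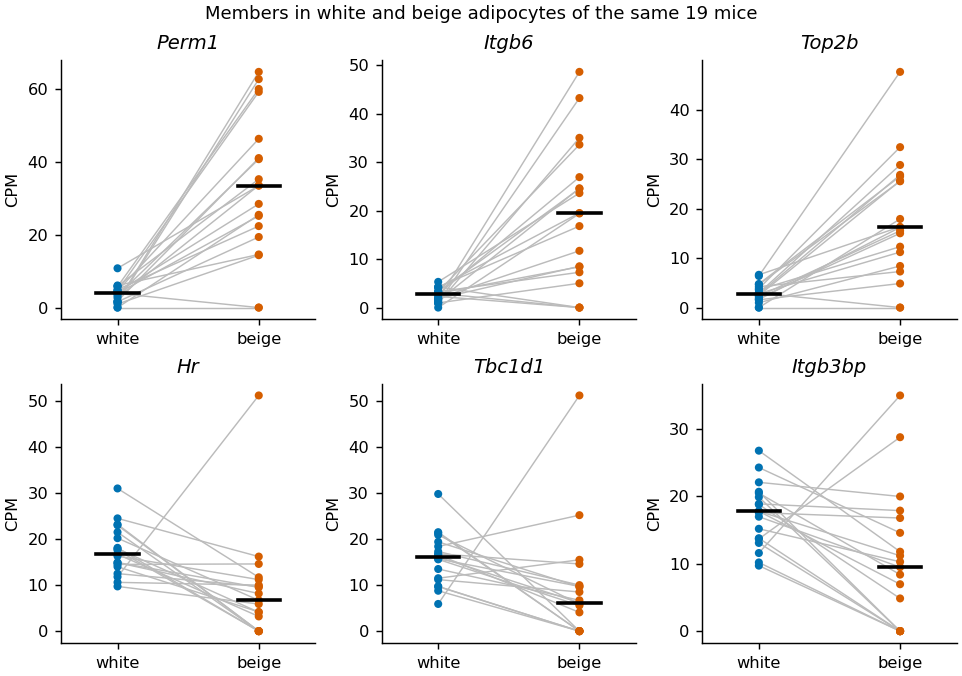
Accessibility (CPM) of the 3 members with the largest rise (Perm1, Itgb6, Top2b) and the largest fall (Hr, Tbc1d1, Itgb3bp) in white and beige adipocytes, with grey lines joining the 2 values of each of 19 mice and black bars at the medians. Perm1 is higher in beige in 17 of 19 mice and Hr in 2 of 19.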

How the data were processed

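The series has 4 sequencing lanes as samples; the mouse, treatment group and cluster of each nucleus came from the table the authors deposited with the matrix. By their methods, the authors aligned reads with Bowtie2 to mm10, filtered them with SAMtools, called peaks with MACS2 per cluster and analysed nuclei with Signac, after removing doublets and poor barcodes. The deposited matrix holds counts of 0 or 1 per peak and nucleus (65588856 entries of 1), so a sum counts nuclei. The deposited nucleus table and the peak and barcode names hold text labels, not measurements.

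Nuclei were summed per mouse and cluster, and sums under 10 nuclei were left out. Depth per VSMC library was 13138 to 198249 entries in the tested mice; intervals cover counting error only. Labels give 3 mice per group. Genes were GENCODE release 21 protein-coding genes; peaks within 2000 bases of a start were called start peaks. Tests used edgeR 4.0.16 (TMM, filterByExpr with a minimum count of 10, treatment group as covariate, adjusted p under 0.05) in R 4.3.3 and DESeq2 1.42.0 as the alternative. Tables and motifs used Python 3.11.15, pandas 2.3.3, numpy 2.4.6 and scipy 1.17.1, and figures matplotlib 3.10.9. The steps were tested on simulated data. The planned contrasts with day 0 were not run.

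The members, the 19 gene lists and the 20 motifs were chosen with earlier results of these data known. Named peaks were the 12 most open members, the start peaks of both muscle marker lists, the 5 on each side of the thresholds, the genes with the most members, list genes with a member, and the 3 largest called changes in each direction. Sequences came from the GRCm38 genome.

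Alternatives were stricter thresholds, equal weights for mice, nuclei with at least 1000 entries, other windows and filters, RLE factors, blocks, other minimum numbers of nuclei, peaks summed per gene, and leaving out mice or groups. Leaving out the day1C mice, the filter on mean CPM and beige and white as separate pools were added after the data were seen.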

Additional observations from a re-analysis of the deposited data

How the results depend on the processing

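The number of members fell from 1886 to 342 with at least 50 CPM and to 1249 with at least 8 times each other pool, and the median share of VSMC entries by mouse fell from 7.83% to 2.29% and 5.10%. Leaving out 1 mouse at a time gave 1827 to 2041 members, of which 1672 to 1881 were shared with the 1886. Equal weights for mice gave 2204 (1621 shared). The CAGCTG ratio to all peaks moved from 1.70 to 1.49 over whole peaks and 1.33 at 40 to 50% G and C, the CAGGTG ratio from 1.78 to 1.52 over whole peaks and 2.12 at 50 CPM, and the MEF2 ratio from 6.67 to 8.40 at 40 to 50% G and C and 8.09 at 8 times. The share at gene starts moved from 9.86% to 7.26% within 1000 bases (all peaks 7.56%) and 14.6% at 50 CPM. At 50 CPM, 9 skeletal and 1 smooth muscle marker genes had a member, and 1 smooth muscle marker had one by nearest gene start.

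No member was called between CL and cold under DESeq2, no filter, RLE factors, sums per gene, the replicate block or without any 1 library (0 to 0). In counts simulated for this comparison with a common dispersion, 116 of 580 peaks were changed, at a median fitted log2 change of 1.96 in the direction set. Only 22.4% of the changed peaks were recovered. For beige against white nuclei the values were 1.94 and 99.5%. The absence of calls between CL and cold therefore does not show that the members were alike. The replicate block gave 0, and same-numbered libraries correlated at -0.04 to 0.06 over 7 pairs. Whether the numbers mark shared batches is not stated in the sources used here. With at least 5 nuclei per library 9 peaks and no member were tested, which gives no value.

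Between beige and white nuclei the mouse block kept all 62 calls, 56 higher and 6 lower. Members higher in beige numbered 134 without a filter, 112 with the filter on mean CPM, and 31, 27 and 26 without the day1CL, day3C and day7C libraries (26 to 48 over the groups left out). Members lower in beige numbered 232, 41, 10 with at least 30 nuclei, and 3 and 0 without day1CL and day7C (0 to 6). With at least 30 nuclei 163 members were tested, of which 84 (51.5%) were higher and 10 (6.13%) lower. Beside them 4166 and 4719 of 33975 peaks were called higher and lower. Fewer members were tested without a group, 39 without day7C against 84. Without a filter 1886 members and 189546 peaks were tested, and of these peaks 5212 were higher and 39019 lower. With beige and white as separate pools in the rule, 9 were higher and 6 lower of 31 tested. The depth of the VSMC libraries limits the treatment comparison.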

Other observations

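Shares of entries in members at day 0 are given for the other pools, without a test. The share of adipocyte entries in members was 0.364% to 0.427% in the 3 day0RT mice and 0.394% to 0.559% in the 18 treated mice. In myeloid cells it was 0.196% to 0.219% against 0.242% to 0.346%, in B cells 0.104% to 0.118% against 0.125% to 0.183%, and in T cells 0.123% to 0.140% against 0.142% to 0.198%, without overlap. In APC (0.324% to 0.399% against 0.279% to 0.457%) and VEC (0.221% to 0.364% against 0.244% to 0.532%) the ranges overlapped. The VSMC nuclei numbered 5 at day 0 and 13 to 114 in each treated group. Within the treated groups the shares did not all follow that number. From day1C (13 VSMC nuclei) to day3C (114), B cells went from 0.160% to 0.175% down to 0.127% to 0.153%. Adipocytes went from 0.394% to 0.430% up to 0.443% to 0.514%. No other set of peaks was set beside these shares, so they are not particular to the members. The part of stray reads in these shares was not tested.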
